A study of Mus musculus with 77 samples.

Results

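The comparison is of visceral fat total RNA from mice on a high-fat diet (HFD) with that from mice on a low-fat diet (LFD), taken from the 6 libraries labelled VsWAT total RNA, HFD 1 to 3 and LFD 1 to 3. They are 6 of the 77 libraries of the series, and all 12385 genes with enough reads were tested. The design text of the series, which names liver, plasma and kidney, gives males aged 12 weeks and 2 weeks on the diet; the VsWAT labels give tissue, diet and strain and no age of their own. All mice, on either diet, were of a modified FVB.129P2 strain with 3 alleles: the targeted mutation Cyp3a13tm1Ahs, the deletion Del(5Cyp3a57-Cyp3a59)1Ahs and the transgene Tg(APOE-CYP3A4)A1Ahs, which by its name puts human CYP3A4 under APOE sequences. Neither diet group is therefore a wild type. The labels do not say whether each library came from a separate mouse, so every p-value measures the spread between libraries, which may be technical.

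White adipose tissue stores surplus energy as triglyceride in large adipocytes. Its adipocytes take up fatty acids from circulating lipoproteins and can also make them from glucose: citrate exported from mitochondria is split to acetyl-CoA by Acly, carboxylated by Acaca and polymerised by Fasn with NADPH, and the products are elongated and desaturated by Elovl6 and the Scd enzymes. In rodents this pathway is driven by insulin and carbohydrate through the transcription factors Srebf1 and Mlxipl and is held down by dietary fat. As fat pads of mice enlarge on a high-fat diet, a set of genes that includes Mest, Sfrp5 and Bmp3 is known to be induced in adipocytes.

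Assigned counts ranged from 3218698 to 6339750 in the HFD libraries and from 5480993 to 9528377 in the LFD libraries. The transcript Gm42418, which lies over a ribosomal RNA sequence and rises in a library with leftover ribosomal RNA, took 0.465%, 0.559% and 7.51% of the counts in HFD 1, 2 and 3 and 7.10%, 0.389% and 3.63% in LFD 1, 2 and 3. Both diets thus held low and high libraries, and the means of 2.84% ± 4.04 in HFD and 3.71% ± 3.36 in LFD (SD, n = 3 each) did not differ beyond that spread (exact permutation test, 2-sided, p = 1, the smallest p that 3 against 3 allows being 0.1). Mitochondrial ribosomal RNA took 41.5% to 49.6% of counts in HFD and 42.3% to 53.3% in LFD, highest in LFD 3. HFD 1 and HFD 2 were much closer to each other than any other pair of one diet, with a chi-square of 4.05 per degree of freedom against 39.8 to 73.1 in the other 5 pairs. They differed by more than counting error and were kept as separate libraries. The labels do not say whether they share an animal or a pool; if they do, HFD holds fewer than 3 independent samples and the p-values are too small, and 22 of the 24 calls below were lost when the pair was summed. The tissue label was met: the 20 of 20 mature adipocyte genes that were tested summed to 35181 to 37998 CPM (counts scaled to a common library size after TMM normalization) in HFD and 33921 to 37972 in LFD. Adipoq, which encodes the adipocyte hormone adiponectin, stood at 1381, 1362 and 1213 CPM in HFD and 1408, 1256 and 1109 CPM in LFD.

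**Figure D1:**
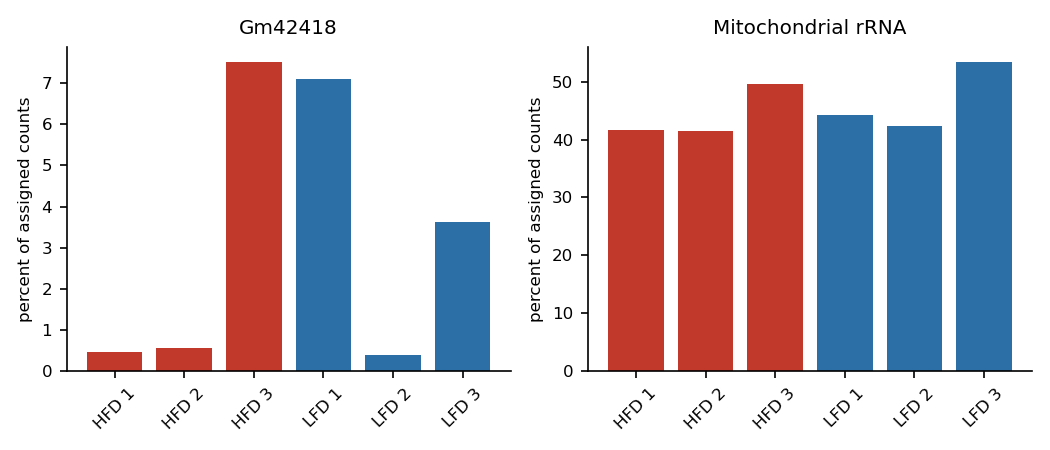
Share of assigned counts, in percent, taken by Gm42418 (left) and by mitochondrial ribosomal RNA (right) in each VsWAT total RNA library, 1 bar per library, HFD in red and LFD in blue. Gm42418 was above 3% in HFD 3, LFD 1 and LFD 3 and at most 0.559% in the other libraries, and mitochondrial ribosomal RNA was highest in LFD 3.

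Few genes passed the test of diet. In simulated data the fit recovered 48 of 100 genes changed 2-fold, so a gene that missed the threshold may still have changed. By edgeR's quasi-likelihood test at a Benjamini-Hochberg adjusted p under 0.05, 8 genes were higher in HFD (0.0646% of those tested) and 16 were lower (0.129%). With no adjustment, 1570 genes had p under 0.05 (12.7%). The ranges of the diets did not overlap, with all 3 HFD libraries above all 3 LFD libraries, for 1145 genes (9.25%), and lay the other way round for 1225 genes (9.89%); these shares are the background for the counts given below for each list, as are 12.7% for an unadjusted p under 0.05 and 1.56% for DESeq2. The median log2 fold change of all genes was -0.01. Every list, that of fatty acid synthesis included, was written with earlier results of these libraries known. The counts of a list are therefore no independent evidence of its direction. Bulk RNA does not tell fewer cells of a type from less of a transcript per cell. Among the genes that passed and have a full gene symbol, Peg3 and Lrg1 had the largest rises, and Acly and Thrsp of fatty acid synthesis the largest falls. DESeq2 called 67 genes higher and 126 lower (1.56% in all), the 24 genes of the edgeR test among them, and scaling by total counts gave 71 higher and 60 lower, with a median over genes of 0.19. The 24 genes kept their direction in every run, but only 3, 4 and 6 of them passed without HFD 1, HFD 2 and HFD 3, and 2 of them with HFD 1 and HFD 2 summed to 1 library, an alternative chosen after seeing the data.

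Among the genes higher in HFD, Peg3, an imprinted gene for a zinc-finger protein that is expressed from the paternal allele, stood at 116, 108 and 82.6 CPM in HFD, against 23.6, 26.2 and 20.05 CPM in LFD. The libraries of the diets lay far apart, and the log2 fold change was 2.14 ± 0.17 (SE, adjusted p = 0.0011). Lrg1, which encodes a secreted leucine-rich glycoprotein, stood at 51.6, 71.5 and 62.6 CPM in HFD, against 16.5, 14.7 and 13.4 CPM in LFD. Its log2 fold change was 2.06 ± 0.16 (adjusted p = 0.0011), and again no library of one diet came near the other. Btc, the gene of the epidermal growth factor receptor ligand betacellulin, stood at 23.5, 24.8 and 17.0 CPM in HFD, against 6.15, 6.05 and 6.49 CPM in LFD, a log2 fold change of 1.82 ± 0.19 (adjusted p = 0.0089). Sfrp5, a secreted inhibitor of Wnt signalling, stood at 57.5, 61.1 and 38.9 CPM in HFD, against 18.3, 19.0 and 11.2 CPM in LFD, a log2 fold change of 1.72 ± 0.23 (adjusted p = 0.033). In both genes the third HFD library was the lowest of its diet, still above every LFD library.

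Smaller rises were found for 3 further named genes. Gprin3, a gene for a G protein-binding protein, stood at 32.0, 40.0 and 45.5 CPM in HFD, against 18.8, 15.6 and 17.9 CPM in LFD, a log2 fold change of 1.16 ± 0.16 (adjusted p = 0.031). Cyp4v3, a cytochrome P450 of the family that hydroxylates fatty acids, stood at 69.5, 67.9 and 65.9 CPM in HFD, against 39.6, 34.4 and 29.7 CPM in LFD, a log2 fold change of 0.98 ± 0.13 (adjusted p = 0.031). Sash1, a scaffold protein gene, stood at 236, 216 and 248 CPM in HFD, against 145, 139.8 and 126 CPM in LFD, a log2 fold change of 0.77 ± 0.12 (adjusted p = 0.0496). The libraries of the diets did not overlap for any of the 3, which was a condition for naming a gene here. The remaining gene that rose, Gm38070, has no full name and stood at 15.7 ± 3.39 CPM in HFD and 3.96 ± 0.57 CPM in LFD (SD, n = 3 each). Peg3 and Lrg1 kept their calls without each of the 6 libraries in turn and with HFD 1 and HFD 2 summed. Btc, Sfrp5, Gprin3, Cyp4v3 and Sash1 missed the threshold without HFD 1 (adjusted p = 0.0627 to 0.333) and without HFD 2 (0.0851 to 0.209), Gprin3, Cyp4v3 and Sash1 also without HFD 3 (0.109 to 0.174), Sash1 also without LFD 1 (0.0509) or LFD 2 (0.0601), and Gm38070 without HFD 1 (0.136) or HFD 3 (0.0731), with fold changes that kept their direction throughout.

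The sequences at the start sites of Peg3, Lrg1, Thrsp and Btc are shown because these were the 4 named genes with the smallest p, among the 16 of 19 with a listed promoter. Each run is the 300 bases from 250 before to 50 after the annotated start, 5′ to 3′ on the gene's strand (minus in all 4), from RefSeq on GRCm38.p6: chr7:6730370-6730669 for Peg3, chr17:56121897-56122196 for Lrg1, chr7:97417501-97417800 for Thrsp and chr5:91402945-91403244 for Btc. Capitals mark matches on either strand to any of 5 short motifs, namely TATAAA (the TATA box), CCAAT (the CCAAT box), GGGCGG (the GC box), CACGTG (the E-box) and TCACNCCAC (a sterol regulatory element).
Peg3: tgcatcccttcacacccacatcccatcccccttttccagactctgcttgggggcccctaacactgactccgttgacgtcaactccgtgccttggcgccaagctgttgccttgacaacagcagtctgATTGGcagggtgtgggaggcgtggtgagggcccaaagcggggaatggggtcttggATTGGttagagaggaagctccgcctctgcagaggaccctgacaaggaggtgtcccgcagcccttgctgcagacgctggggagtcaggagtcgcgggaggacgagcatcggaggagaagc
Lrg1: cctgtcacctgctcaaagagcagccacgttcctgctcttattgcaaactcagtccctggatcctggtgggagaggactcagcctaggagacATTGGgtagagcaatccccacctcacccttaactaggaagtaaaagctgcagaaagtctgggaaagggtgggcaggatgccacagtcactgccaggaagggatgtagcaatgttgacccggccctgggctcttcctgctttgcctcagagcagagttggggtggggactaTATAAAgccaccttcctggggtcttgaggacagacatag
Thrsp: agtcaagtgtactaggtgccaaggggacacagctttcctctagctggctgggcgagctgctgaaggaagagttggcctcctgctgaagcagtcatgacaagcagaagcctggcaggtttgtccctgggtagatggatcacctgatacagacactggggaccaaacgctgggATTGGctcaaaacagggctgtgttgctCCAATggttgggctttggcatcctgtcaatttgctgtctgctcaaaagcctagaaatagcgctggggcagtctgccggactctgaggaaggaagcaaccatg
Btc: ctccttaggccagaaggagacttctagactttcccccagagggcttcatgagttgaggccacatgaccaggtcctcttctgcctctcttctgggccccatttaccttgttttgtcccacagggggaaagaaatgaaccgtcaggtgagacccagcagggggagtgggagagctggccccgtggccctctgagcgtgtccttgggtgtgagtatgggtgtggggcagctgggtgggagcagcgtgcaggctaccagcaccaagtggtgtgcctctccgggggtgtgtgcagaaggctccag
Peg3 and Thrsp each held 2 matches to CCAAT, Lrg1 held 1 match to CCAAT and 1 to TATAAA, and Btc held none of the 5. The TATAAA letters of Lrg1, at bases 262 to 267 of the run, lie downstream of the annotated start, where a TATA box does not lie. The matches to CCAAT on the opposite strand read ATTGG in these runs. Of 32851 promoters listed for the mouse, 37.4% held CCAAT, 13.6% TATAAA, 35.7% GGGCGG, 7.15% CACGTG and 1.24% TCACNCCAC in the same window. The motifs do not overlap one another in these 4 runs, and a match is only a match of letters.

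**Figure D2:**
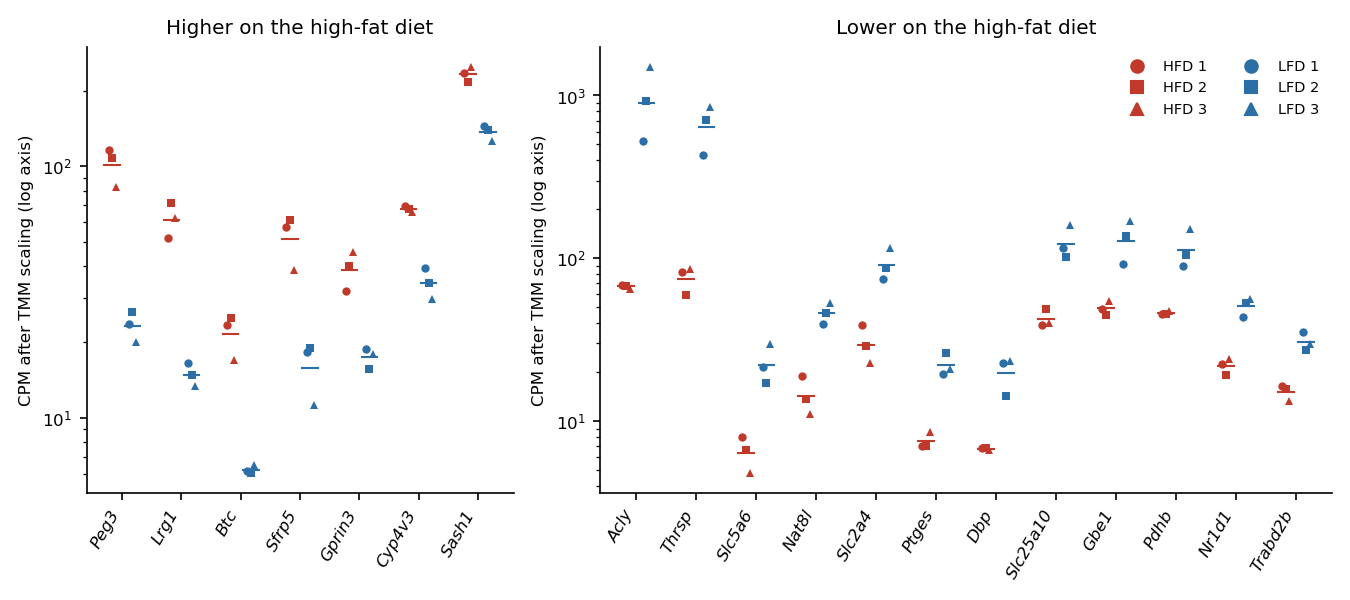
CPM after TMM scaling (log axis) of the 7 named genes higher and the 12 named genes lower in HFD, 1 point per library, with HFD in red to the left of LFD in blue, symbols for replicates 1 to 3 and a line at each diet's geometric mean. Genes were named only where the diets did not overlap, so the gap between the points is part of the choice. Acly and Thrsp are the furthest apart among the genes lower in HFD.

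Among the genes that passed and have a full gene symbol, the largest falls were in genes of fatty acid synthesis. Acly, which encodes ATP citrate lyase, the source of cytosolic acetyl-CoA (chr11:100476352-100528000, RefSeq on GRCm38.p6), stood at 68.7, 67.8 and 64.8 CPM in HFD, against 528, 929 and 1490.5 CPM in LFD. The log2 fold change was -3.87 ± 0.38 (adjusted p = 0.017), that is, 14.6 times lower in HFD. Thrsp, the Spot 14 gene, whose product promotes lipogenesis, stood at 82.5, 59.6 and 85.9 CPM in HFD, against 429, 709.5 and 845 CPM in LFD, a log2 fold change of -3.13 ± 0.27 (adjusted p = 0.0089). In both genes the HFD libraries lay close together, while the LFD libraries differed among themselves, with LFD 1 lowest and LFD 3 highest. Thrsp missed the threshold without HFD 1 (adjusted p = 0.0627), and Acly without HFD 1 (0.161), HFD 2 (0.157), HFD 3 (0.0912) or LFD 2 (0.0509), with log2 fold changes between -4.17 and -2.91 for the pair in every run without a library.

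Of the 20 listed genes of fatty acid synthesis and its regulators, 19 were tested, and all 19 had a negative log2 fold change, with a median of -1.91 against -0.01 over all genes. Of these, 2 passed the test (Acly and Thrsp), and in 16 all HFD libraries lay below all LFD libraries, where 9.89% of all genes did so. Fasn, the fatty acid synthase, stood at 317, 394 and 408 CPM in HFD, against 2611, 2822 and 8744 CPM in LFD, with a log2 fold change of -3.66 ± 0.53 that did not pass (adjusted p = 0.071). Acaca, the acetyl-CoA carboxylase of lipogenesis, stood at 71.1, 54.9 and 71.8 CPM in HFD, against 413, 480.0 and 1138 CPM in LFD (-3.37 ± 0.43, adjusted p = 0.062). Both genes showed the spread of Acly, narrow in HFD and wide in LFD. Elovl6, which elongates palmitate, stood at 27.8, 28.0 and 50.4 CPM in HFD, against 263, 344 and 1463 CPM in LFD (-4.31 ± 0.87, adjusted p = 0.19). In this gene LFD 3 stood far above the other LFD libraries.

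Genes that feed the pathway lay in the same direction. Slc25a1, the mitochondrial citrate carrier, stood at 42.1, 45.2 and 45.5 CPM in HFD, against 132, 192 and 337 CPM in LFD (-2.32 ± 0.33, adjusted p = 0.071). Me1, the cytosolic malic enzyme and a source of NADPH, stood at 88.5, 93.0 and 96.6 CPM in HFD, against 295, 629 and 914 CPM in LFD (-2.73 ± 0.40, adjusted p = 0.071). Acss2, which makes acetyl-CoA from acetate, stood at 17.3, 24.4 and 18.1 CPM in HFD, against 72.5, 144 and 287 CPM in LFD (-3.05 ± 0.54, adjusted p = 0.14). None of the 3 passed, though in each the highest HFD library was below the lowest LFD library. Of the desaturases, Scd2 had a log2 fold change of -1.91 ± 0.39 (adjusted p = 0.16), and Scd1 had -0.90 ± 0.36 (adjusted p = 0.35), with 21907, 17232 and 19047 CPM in HFD, against 22946, 26044 and 59605 CPM in LFD. The fold change of Scd1 thus drew mainly on LFD 3, while HFD 1 and LFD 1 were close. Of the transcription factors, Srebf1 stood at 32.2, 21.7 and 9.26 CPM in HFD, against 54.6, 35.5 and 81.5 CPM in LFD (-1.39 ± 0.46, adjusted p = 0.32), and Mlxipl at 14.6, 16.1 and 7.04 CPM in HFD, against 24.2, 22.0 and 44.1 CPM in LFD (-1.20 ± 0.35, adjusted p = 0.26). Of the pentose phosphate pathway and NADPH supply, 10 of 10 genes were tested, 0 passed (5 at an unadjusted p under 0.05, 3 lower by DESeq2, median log2 fold change -0.37), and Tkt, the transketolase, came nearest, at 36.7, 32.8 and 38.9 CPM in HFD, against 227, 419 and 769 CPM in LFD (-3.71 ± 0.47, adjusted p = 0.062).

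**Figure D3:**
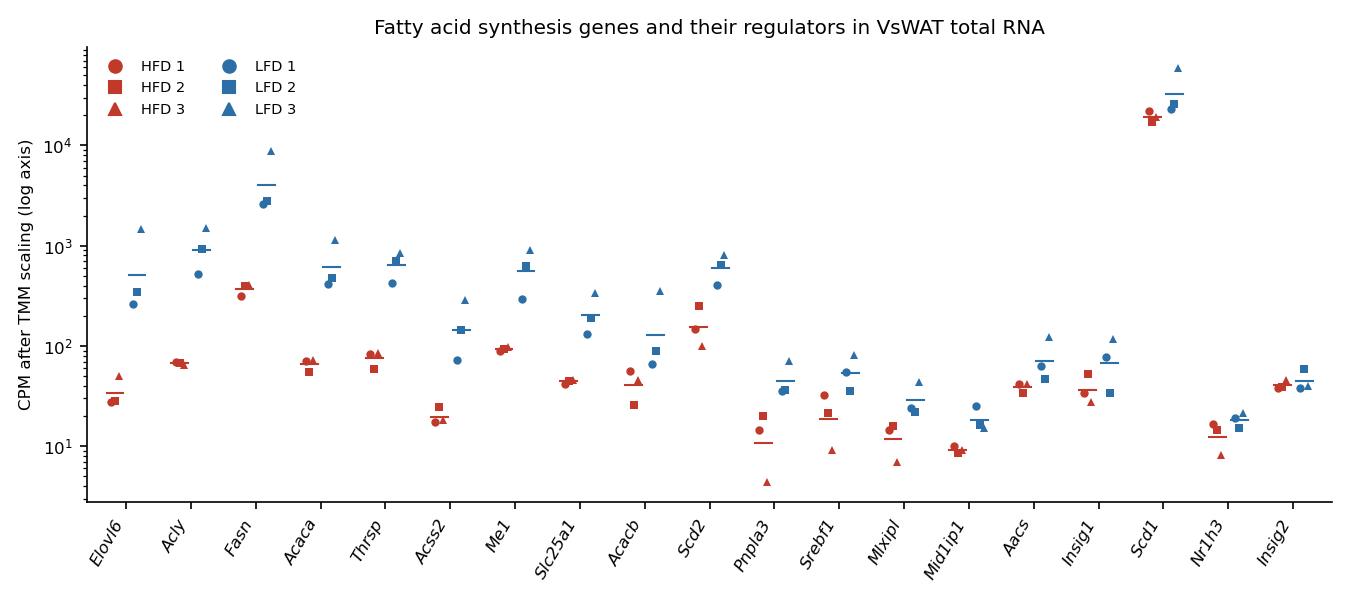
CPM after TMM scaling (log axis) of the 19 tested genes of fatty acid synthesis and its regulators, ordered by log2 fold change, 1 point per library, with HFD in red to the left of LFD in blue and a line at each diet's geometric mean. HFD points sit below LFD points for 16 of the 19 genes, and LFD 3 is often the highest library.

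The count of fatty acid synthesis genes that passed depended on the tool and the libraries. It was 2 by edgeR and 12 by DESeq2. It was 0, 1 and 1 without HFD 1, HFD 2 and HFD 3, 7, 1 and 6 without LFD 1, LFD 2 and LFD 3, 0 with HFD 1 and HFD 2 summed, and 12 without the 3 libraries that held over 3% of Gm42418, a run that sets the close pair HFD 1 and HFD 2 against LFD 2 alone and takes its spread from that pair. The median log2 fold change of the list lay between -2.04 and -1.11 in all of these runs. The summed level of the list was 23025, 18479 and 20187 CPM in HFD 1, 2 and 3 and 28500, 33291 and 76506 CPM in LFD 1, 2 and 3, most of it from Scd1. LFD 3 was also the library with the highest mitochondrial ribosomal RNA, the lowest TMM factor (0.73) and the lowest mean correlation with the other libraries (0.948); the part of these in its lipogenic level was not tested, and without LFD 3 Acly and Thrsp still fell (adjusted p = 0.00092 and 0.0073).

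Slc2a4, Pdhb and Gbe1, which act in glucose uptake, pyruvate oxidation and glycogen synthesis, fell as well. Slc2a4, which encodes the insulin-responsive glucose transporter GLUT4, stood at 38.6, 28.9 and 22.6 CPM in HFD, against 74.4, 87.0 and 115 CPM in LFD, a log2 fold change of -1.60 ± 0.22 (adjusted p = 0.034). Pdhb, a subunit of pyruvate dehydrogenase, stood at 45.2, 45.7 and 47.4 CPM in HFD, against 89.6, 104 and 150.4 CPM in LFD, a log2 fold change of -1.32 ± 0.19 (adjusted p = 0.032). Gbe1, the glycogen branching enzyme, stood at 48.9, 44.7 and 54.4 CPM in HFD, against 92.1, 136 and 169 CPM in LFD, a log2 fold change of -1.43 ± 0.21 (adjusted p = 0.046). For all 3 genes every LFD library was above every HFD library, as the naming rule required. LFD 1 was the lowest and LFD 3 the highest of the LFD libraries. Each missed the threshold without HFD 1 (adjusted p = 0.0627 to 0.324), HFD 2 (0.22 to 0.245) or HFD 3 (0.111 to 0.141), and Gbe1 without LFD 2 (0.0695).

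Of the 21 listed genes of glucose transport and glycolysis, 20 were tested, 1 fell (Slc2a4) and 0 rose. The median log2 fold change was -0.78, 17 of 20 were negative, and in 9 of 20 all HFD libraries lay below all LFD libraries. Aldoa, an aldolase, stood at 209.9, 216 and 202.5 CPM in HFD, against 349.6, 454 and 806.5 CPM in LFD (-1.36 ± 0.29, adjusted p = 0.15). Pkm, the muscle-type pyruvate kinase, stood at 25.2, 24.7 and 24.4 CPM in HFD, against 49.97, 61.2 and 162 CPM in LFD (-1.88 ± 0.48, adjusted p = 0.23). Pdha1, the catalytic partner of Pdhb, had a log2 fold change of -0.98 ± 0.26 (adjusted p = 0.21). None of these passed. Several glycolytic genes, Gapdh, Pkm and Aldoa among them, have near-identical processed pseudogenes, and reads shared with a copy may be missing from their counts. Pdk4, the kinase that switches pyruvate dehydrogenase off, stood at 147, 108 and 259.6 CPM in HFD, against 38.6, 69.7 and 143 CPM in LFD (1.02 ± 0.56, adjusted p = 0.52), so that the diets overlapped.

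The other named genes that fell have metabolic, secretory or signalling roles. Nat8l, which makes N-acetylaspartate and feeds acetyl groups to lipid synthesis in adipocytes, stood at 18.8, 13.7 and 11.1 CPM in HFD, against 39.2, 46.2 and 53.1 CPM in LFD, a log2 fold change of -1.64 ± 0.20 (adjusted p = 0.015). Slc25a10, the mitochondrial dicarboxylate carrier, stood at 39.0, 49.0 and 40.0 CPM in HFD, against 115, 101 and 160.4 CPM in LFD, a log2 fold change of -1.55 ± 0.19 (adjusted p = 0.015). Slc5a6, which imports biotin and pantothenate, stood at 7.96, 6.66 and 4.81 CPM in HFD, against 21.5, 17.1 and 29.7 CPM in LFD, a log2 fold change of -1.77 ± 0.25 (adjusted p = 0.032). Biotin is the cofactor of acetyl-CoA carboxylase and pantothenate the precursor of coenzyme A. Ptges, a prostaglandin E synthase, stood at 6.99, 7.06 and 8.52 CPM in HFD, against 19.4, 26.1 and 20.9 CPM in LFD, a log2 fold change of -1.58 ± 0.19 (adjusted p = 0.015). Trabd2b, a membrane protease that acts on Wnt proteins, stood at 16.5, 15.8 and 13.3 CPM in HFD, against 35.2, 27.4 and 29.7 CPM in LFD, a log2 fold change of -0.996 ± 0.16 (adjusted p = 0.046). The diets did not overlap for any of these 5 genes, as the naming rule required.

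The remaining 4 genes that fell lay outside the naming rule, by rank or for want of a full name or of counts, and were named after their values were seen. Cdo1, the cysteine dioxygenase that opens taurine synthesis, stood at 393, 392.1 and 399.5 CPM in HFD, against 638.5, 702 and 671 CPM in LFD, a log2 fold change of -0.76 ± 0.12 (adjusted p = 0.0496). Its HFD libraries lay very close together. The other 3 had few counts and are given by level. Gm5182 stood at 0.582, 0.653 and 0.741 CPM in HFD, against 5.19, 5.90 and 11.8 CPM in LFD (adjusted p = 0.023), and B430219N15Rik at 0.582, 0.653 and 0.370 CPM in HFD, against 3.08, 5.46 and 4.62 CPM in LFD (adjusted p = 0.032). Gm13394 stood at 3.30, 2.61 and 2.59 CPM in HFD, against 9.99, 10.9 and 20.5 CPM in LFD (adjusted p = 0.035). The 5 genes before and these 4 each missed the threshold in at least 1 run without a library. They did so without HFD 1 for all but Nat8l (adjusted p = 0.147 to 0.333), without HFD 2 for all 9 (0.1 to 0.269), without HFD 3 for all but Ptges (0.0636 to 0.168), without LFD 1 for Trabd2b (0.066) and Cdo1 (0.0508) and without LFD 2 for Cdo1 (0.0623).

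A pair of circadian clock genes fell. Nr1d1, which encodes the clock repressor REV-ERB alpha, stood at 22.5, 19.1 and 24.1 CPM in HFD, against 43.4, 53.4 and 56.1 CPM in LFD, a log2 fold change of -1.24 ± 0.15 (adjusted p = 0.015). Dbp, a clock output factor, stood at 6.80, 6.79 and 6.66 CPM in HFD, against 22.9, 14.3 and 23.5 CPM in LFD, a log2 fold change of -1.57 ± 0.23 (adjusted p = 0.032). Of 19 listed clock genes 16 were tested, these 2 fell and 0 rose, the median log2 fold change was -0.32, and 7 of 16 lay wholly below LFD (9.89% of all genes). Tef, which binds the same sites as Dbp, stood at 52.2, 54.0 and 46.3 CPM in HFD, against 76.5, 74.6 and 80.3 CPM in LFD (-0.60 ± 0.12, adjusted p = 0.092). Cry2, Nr1d2, Rora and Bhlhe41 also lay wholly below LFD without passing, while Arntl, Per1 and Per2 overlapped between diets. The hour at which tissue was taken is not given in the sources used here, and its part in these values was not tested. Both genes missed the threshold without HFD 1 (adjusted p = 0.15 and 0.23), HFD 2 (0.163 and 0.22) or HFD 3 (0.0636 and 0.123). With the dispersion of all 12 total RNA libraries the adjusted p was 0.371 for Nr1d1 and 0.0529 for Dbp.

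Of 18 listed genes known to be induced as fat pads expand, 17 were tested, 2 rose (Peg3 and Sfrp5) and 0 fell; the median log2 fold change was 0.46, 15 of 17 were positive, and in 7 of 17 all HFD libraries lay above all LFD libraries, against 9.25% of all genes. Mest, an imprinted gene whose level tracks adipocyte enlargement in mice, stood at 475, 595 and 199.6 CPM in HFD, against 114, 87.9 and 162 CPM in LFD (1.81 ± 0.43, adjusted p = 0.21). Its diets did not overlap, but HFD 3 was much nearer to LFD than HFD 1 and HFD 2 were. Bmp3, a growth factor of the BMP family, stood at 90.1, 83.2 and 54.8 CPM in HFD, against 48.8, 41.1 and 39.7 CPM in LFD (0.83 ± 0.18, adjusted p = 0.14). Lep, which encodes leptin, stood at 836, 890.0 and 457 CPM in HFD, against 543, 602 and 439 CPM in LFD (0.46 ± 0.25, adjusted p = 0.48). HFD 3 was the lowest HFD library for Mest, Bmp3, Lep, Peg3 and Sfrp5 alike. The list was written with earlier results of these libraries known, so its count of rises is no independent evidence of its direction.

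Of the 20 genes that mark the mature adipocyte, all tested, 1 fell (Slc2a4) and 0 rose, with a median log2 fold change of -0.26. Of these, 14 were negative, and 6 had an unadjusted p under 0.05 (12.7% of all genes). In 8 all HFD libraries lay below all LFD libraries (9.89% of all genes), Gpd1 among them (-1.41, adjusted p = 0.0997). In 2, Fabp4 and Cd36, all HFD libraries lay above (9.25%). Adipoq had 0.07 ± 0.15 (adjusted p = 0.88), and Plin1, which coats the lipid droplet, had -0.38 ± 0.13 (adjusted p = 0.28), with 414, 393 and 369.9 CPM in HFD, against 527, 462 and 538 CPM in LFD. Fabp4 and Cd36, which bind and take up fatty acids, had log2 fold changes of 0.25 ± 0.17 and 0.19 ± 0.15, and Cebpa, an adipogenic transcription factor, had -0.59 ± 0.15 (adjusted p = 0.18). None of these passed.

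Other lipid pathways held no gene that passed, with counts of 0 higher and 0 lower by edgeR in each list that follows. Triglyceride synthesis and lipid droplet genes (17 of 18 tested) had a median log2 fold change of -0.49, 6 lay wholly below LFD, 7 had an unadjusted p under 0.05, and DESeq2 called 4 lower. Among them Dgat2, which adds the last acyl chain of triglyceride, stood at 369, 492 and 304 CPM in HFD, against 670.4, 708 and 951 CPM in LFD (-0.997 ± 0.21, adjusted p = 0.11), and Agpat2, an acyltransferase, had -1.61 ± 0.32 (adjusted p = 0.14). Cholesterol synthesis and uptake genes (22 of 23) had a median of -0.53, 10 lay wholly below LFD, 11 had an unadjusted p under 0.05, and DESeq2 called 4 lower. Dhcr7, the last step of the pathway, had -1.29 ± 0.28 (adjusted p = 0.13), while Hmgcs1, an early step, was at 0.72 ± 0.27 (adjusted p = 0.33). Lipolysis genes (14 of 15) had a median of -0.21, which was 0.03 under total-count scaling, with 5 at an unadjusted p under 0.05 and 1 lower by DESeq2. Lipe, the hormone-sensitive lipase, was at -0.72 ± 0.21 (adjusted p = 0.22). Genes of fatty acid uptake and oxidation (24 of 26) had a median of -0.11, which was 0.18 under total-count scaling, with 1 gene wholly separated each way, 2 at an unadjusted p under 0.05 and 0 by DESeq2, no more than the background. The 24 nuclear respiratory chain genes were all negative, with a median of -0.39, 6 wholly below LFD, 5 at an unadjusted p under 0.05 and 0 called by DESeq2, and their summed level was highest in LFD 3.

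**Figure D4:**
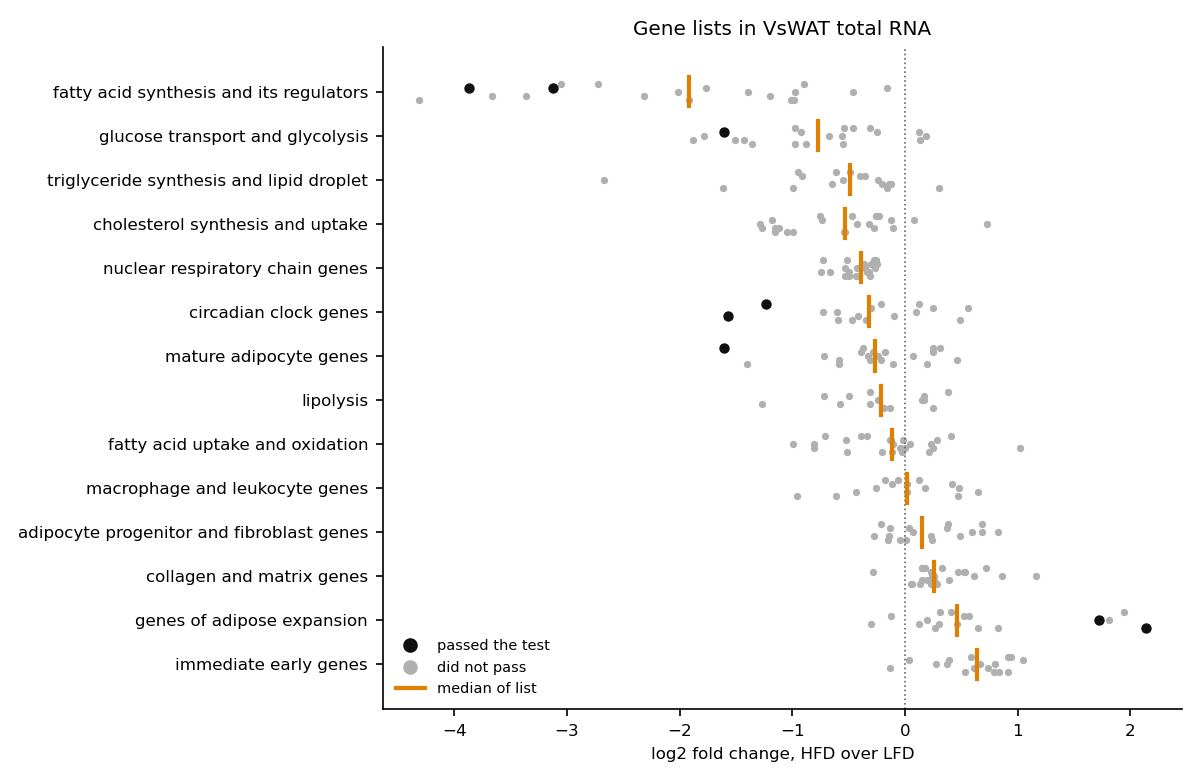
Log2 fold change, HFD over LFD, of each tested gene of 14 lists in VsWAT total RNA; black points passed the test, grey points did not, and the orange bar is the median of the list. Fatty acid synthesis lies furthest to the left, with a median of -1.91, and immediate early genes and genes of adipose expansion lie to the right, at 0.64 and 0.46.

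Markers of the other cells that visceral fat can hold were read as whole lists, and 0 genes of those that follow passed by edgeR. Macrophage and leukocyte genes (15 of 17 tested) had a median log2 fold change of 0.01, 2 at an unadjusted p under 0.05 and 0 by DESeq2, and summed to 694 to 742 CPM in HFD and 527 to 1120 CPM in LFD. Lipid-associated macrophage genes (14 of 15) had 2 at an unadjusted p under 0.05, 1 by DESeq2 and a median of -0.34, which turned to 0.73 without LFD 2, where the list summed to 2088 CPM against 1066 to 1207 CPM in the other LFD libraries. Adipocyte progenitor and fibroblast genes (18 of 18) had a median of 0.15, 4 at an unadjusted p under 0.05 and 2 higher by DESeq2, with Pdgfra, the progenitor receptor, at 92.4, 106 and 116 CPM in HFD, against 71.1, 63.8 and 60.4 CPM in LFD (0.69 ± 0.13, adjusted p = 0.082). Dpt, a matrix protein of fibroblasts, had 0.68 ± 0.13 (adjusted p = 0.086). Collagen and matrix genes were positive in 24 of 25, with a median of 0.26, 3 genes wholly above LFD, 5 at an unadjusted p under 0.05 and 1 higher by DESeq2. Endothelial genes (15 of 15) had a median of 0.03, pericyte and smooth muscle genes (12 of 12) had -0.25, and mesothelial genes (9 of 12) had -0.15, with 0, 1 and 0 genes at an unadjusted p under 0.05 and 0, 1 and 0 by DESeq2.

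Some marker lists differed widely between libraries of one diet. Ucp1, which defines brown adipocytes, stood at 14.4, 2.09 and 29.6 CPM in HFD and 0.961, 0.295 and 31.2 CPM in LFD, and the brown and beige list (11 of 16 tested) summed to 129 to 206 CPM in HFD and 110 to 349 CPM in LFD. Its median of -0.28 turned to 0.86 without LFD 3 and to 0.08 under total-count scaling. Hepatocyte genes (9 of 14 tested) had a median log2 fold change of 1.80, with 8 of 9 positive and none wholly separated, and the median was 0.51 without HFD 2. They summed to 149 to 573 CPM in HFD and 226 to 394 CPM in LFD, and the brown and the hepatocyte list each had 1 gene at an unadjusted p under 0.05 and 0 by edgeR or DESeq2. Of the epididymis and testis genes 12 of 15 had no count in any of the 6 libraries, and only 1 was tested, and the pancreas, skeletal muscle and T and NK cell lists likewise had 1 tested gene each. The part of these cell types in the genes above was not tested.

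Inflammatory mediators and immediate early genes leaned upward without a gene that passed by edgeR. Of 21 mediators 13 were tested, with a median log2 fold change of 1.12, 10 positive and 4 at an unadjusted p under 0.05, and DESeq2 called 2 higher. Cxcl1, a neutrophil-attracting chemokine, stood at 18.1, 4.83 and 23.3 CPM in HFD, against 2.31, 3.39 and 3.32 CPM in LFD (2.25 ± 0.59, adjusted p = 0.22), and Hp, the haptoglobin gene, stood at 184, 182 and 225.5 CPM in HFD, against 56.9, 139 and 89.7 CPM in LFD (1.04 ± 0.30, adjusted p = 0.24). Of 21 immediate early genes 18 were tested, with a median of 0.64, 17 positive, 7 wholly above LFD, 8 at an unadjusted p under 0.05 and 1 higher by DESeq2. Egr1, a transcription factor induced within minutes of a stimulus, stood at 24.9, 19.5 and 42.6 CPM in HFD, against 15.2, 15.04 and 10.5 CPM in LFD (1.05 ± 0.30, adjusted p = 0.22). HFD 3 was the highest library for both lists, with 433 CPM of mediators and 673 CPM of immediate early genes in sum, and it also held 67.8 CPM of the heat shock gene Hspa1a, against 2.52 to 5.62 CPM in the other 5 libraries. What part the handling of that tissue had in these values was not tested.

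The same diet contrast was set beside that in GAS total RNA, the other tissue labelled as total RNA, from HFD and LFD mice of the same strain (3 libraries each). All 13 listed skeletal muscle genes were tested there. In GAS, 108 of 11866 genes passed (0.91%), and the difference between the tissues' diet effects, VsWAT minus GAS, passed for 212 of 13622 genes (1.56%). TMM factors were 0.869, 0.837 and 0.927 in GAS HFD and 1.19, 1.14 and 1.09 in GAS LFD, without overlap. Gm42418 took 6.15%, 1.17% and 0.238% of counts in GAS HFD and at most 0.462% in GAS LFD. With total-count scaling, 34 genes were higher and 980 lower in GAS, and the difference was positive for 622 and negative for 28. These counts thus depended on the scaling. Without GAS HFD 2 only 1 gene passed in GAS. Of the 24 genes that changed in VsWAT, 20 were tested in GAS and 4 changed there, while the difference between tissues passed for 9. Peg3 was at 17.1 ± 3.67 CPM in HFD and 19.7 ± 5.70 CPM in LFD in GAS (SD, n = 3 each), a log2 fold change of -0.21 ± 0.25, and the difference was 2.28 ± 0.32 (adjusted p = 0.0065). For Slc2a4 GAS showed 0.48 ± 0.18 (adjusted p = 0.20), and the difference was -2.14 ± 0.31 (adjusted p = 0.0086). Cyp4v3 differed by 1.85 ± 0.24 (adjusted p = 0.0045), with 0.98 in VsWAT alone. Lrg1 differed by 2.10 ± 0.44 (adjusted p = 0.038), with 2.06 in VsWAT alone. The difference thus passed the threshold for these 4 genes. The 24 genes were chosen by their diet effect in the same VsWAT libraries, so the 9 that passed are not independent of that choice. The difference held in every run that left out a library for Cyp4v3, while Peg3 missed the threshold without GAS HFD 2 (adjusted p = 0.0593), Slc2a4 without GAS HFD 2 (0.0648) or VsWAT HFD 2 (0.0641), and Lrg1 in 9 of the 12 such runs (0.0577 to 0.13).

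Of the 19 fatty acid synthesis genes in the fit over both tissues, the difference passed for 2, Me1 (-2.32 ± 0.49, adjusted p = 0.043) and Acss2 (-2.81 ± 0.59, adjusted p = 0.044), both below 0. Acly fell in GAS too, to 9.95 ± 4.11 CPM in HFD against 63.2 ± 12.8 CPM in LFD (-2.66 ± 0.30, adjusted p = 0.0094), and the difference between tissues was -1.26 ± 0.50 (adjusted p = 0.17). Thrsp fell in GAS to 3.31 ± 1.61 CPM in HFD against 32.5 ± 14.5 CPM in LFD (-3.29 ± 0.45, adjusted p = 0.025), with a difference of 0.11 ± 0.53 (adjusted p = 0.94). A difference that missed the threshold does not show that the tissues responded alike, since in simulated data the fit found 4 of 100 genes whose tissue difference was 2-fold. Beside these values, adipocyte marker genes were also lower in the GAS HFD libraries, where the 20 genes had a median log2 fold change of -1.18 and Adipoq averaged 12.4 ± 4.67 CPM in HFD and 43.3 ± 4.66 CPM in LFD (SD, n = 3 each). Their part in the GAS values was not tested. Among the largest differences that passed, Mest (3.34 ± 0.71, adjusted p = 0.046) and Hp (3.34 ± 0.58, adjusted p = 0.028) lay above 0, and Gapdh (-3.94 ± 0.67, adjusted p = 0.028) and Pkm (-3.04 ± 0.50, adjusted p = 0.022) lay below. In VsWAT alone the log2 fold change was 1.81 for Mest, 1.04 for Hp and -1.88 for Pkm, none of which passed. The differences for Mest, Hp and Pkm therefore draw on the GAS libraries as well. Without GAS HFD 2 the difference passed for 5 genes in all, and without VsWAT HFD 1, HFD 2 or HFD 3 for 17, 15 or 30, and each of Mest, Hp, Gapdh and Pkm missed the threshold without GAS HFD 2 (adjusted p = 0.0785 to 0.128), VsWAT HFD 1 (0.0607 to 0.0912) or VsWAT HFD 2 (0.0874 to 0.119).

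**Figure D5:**
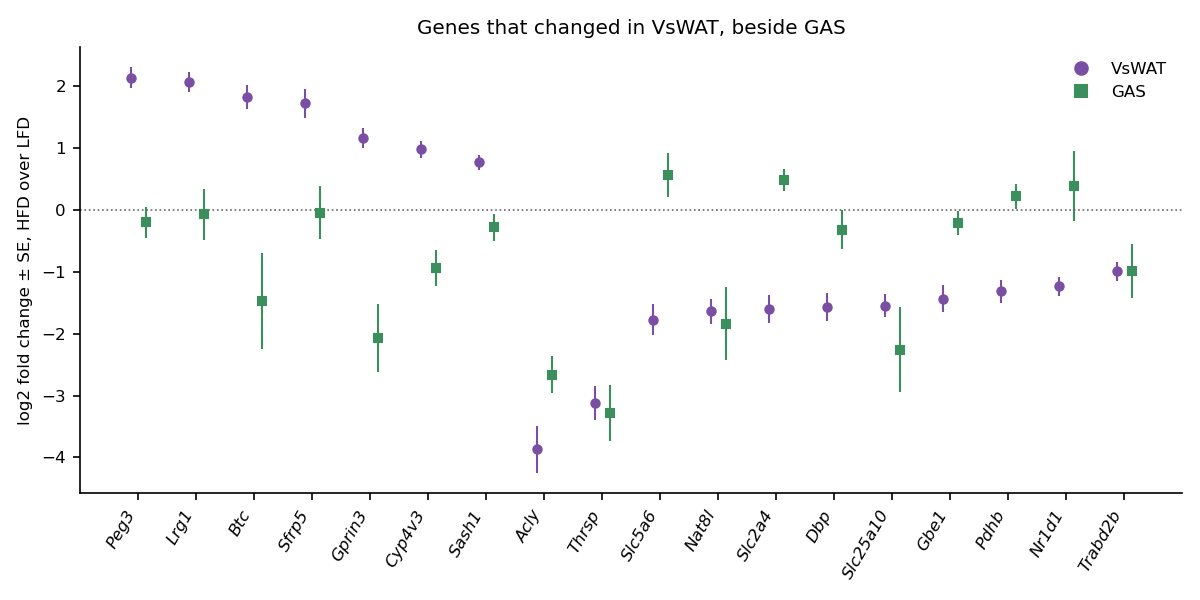
Log2 fold change ± SE, HFD over LFD, in VsWAT (circles) and GAS (squares) total RNA (3 libraries per diet and tissue) of the 18 named VsWAT genes that were also tested in GAS. The 7 genes higher in VsWAT have GAS values below 0, while Acly and Thrsp are negative in both tissues.

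Small RNA input libraries of VsWAT from the same groups gave a second reading, at 881578 to 2220123 assigned counts. Libraries of the same diet and number deviated together with those of total RNA (correlation of deviations from group means 0.297 to 0.541). Libraries of differing numbers were not compared, so pairing by number is not shown. The set was therefore read as a second library of related material and not as an independent sample. There, 17 of 7987 genes passed (0.213%). Of the 24 genes that changed in total RNA 19 were tested, all 19 had the same sign and did not overlap between diets, and 6 passed. Of all 7987 genes of this set, 585 lay wholly above and 613 wholly below LFD. Lrg1 stood at 94.4, 147 and 131 CPM in HFD, against 23.8, 25.6 and 33.2 CPM in LFD (2.18 ± 0.21, adjusted p = 0.00026). Thrsp stood at 68.8, 66.4 and 73.8 CPM in HFD, against 373, 589 and 726 CPM in LFD (-3.01 ± 0.25, adjusted p = 7.4e-05). The other 4 were Acly (-3.58 ± 0.34), Sfrp5 (1.35 ± 0.22), Gbe1 (-1.63 ± 0.24) and Slc2a4 (-1.26 ± 0.22), with adjusted p of 0.00073, 0.016, 0.0091 and 0.033. Fasn (-3.16 ± 0.33, adjusted p = 0.00059), Acaca (-3.05 ± 0.37, adjusted p = 0.012) and Tkt (-3.49 ± 0.38, adjusted p = 0.0057), which missed the threshold in total RNA, fell here. HFD 1 and HFD 2 of this set were close to counting error (chi-square of 1.73 per degree of freedom), and with them summed 6 genes passed, 1 higher and 5 lower.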

How the data were processed

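Total RNA was sequenced as 75 bp single-end reads from a small RNA library kit, per the labels' protocols. The authors deposited whole-number read counts per Ensembl gene, not normalized; STAR, HTSeq and mm10 are named in the submitters' processing notes, and versions and strand setting are not given in the sources used here, so reads of overlapping genes cannot be told apart. The 5 summary rows of each deposited count table were dropped; reads with no feature were 22.1% to 32.3% and reads not aligned uniquely 12.2% to 21.1% of all reads. Of 55421 listed genes, 12385 passed edgeR's filterByExpr (minimum count 10) and were tested with edgeR 4.0.16 (R 4.3.3, limma 3.58.1) by the quasi-likelihood F-test after TMM normalization, HFD against LFD, 3 libraries each, with Benjamini-Hochberg adjustment over all genes tested and a threshold of 0.05. All p-values in the text are from this test unless another is named. The standard error of a log2 fold change is its size over the square root of F. Diet by tissue was an interaction term over the 12 total RNA libraries, which were taken as independent. The labels do not say whether VsWAT and GAS libraries came from the same mice. Deviations of VsWAT and GAS libraries of the same diet and number from their group means correlated at 0.0097 to 0.0943. DESeq2 1.42.0, other scalings, no filter, a replicate block, libraries left out and treatments of Gm42418 were alternatives. Named genes were the called genes with a full symbol, a mean of at least 20 counts and no overlap between diets, up to 12 each way by fold change, up to 4 genes of each list by p, Gm42418, Adipoq, Plin1, Lep, Mest and Ucp1, and up to 5 interaction genes each way; a few other list members were named after their values were seen. The gene lists and this rule were written with earlier results of these data known. Tested on simulated data with 12090 genes, the diet fit recovered 48 of 100 genes changed 2-fold and 96 of 100 changed 4-fold, with 6 false calls. With 13123 genes, the interaction fit recovered 4 and 63 of 100, with 4 false calls. The simulated libraries were independent, with a single dispersion per gene for all groups. They held no close pair like HFD 1 and HFD 2 and no wider spread in one diet, so recovery in the real data may differ. Same-numbered HFD and LFD libraries did not deviate together (correlations of -0.06, 0.12 and -0.02), so the numbers were not treated as pairs. Where a share of counts is given, counting error is far below the spread between libraries. Figures were drawn with matplotlib 3.10.9.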

Additional observations from a re-analysis of the deposited data

Results flagged for a closer look

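The effect of diet differed between VsWAT and GAS total RNA by the interaction test (edgeR, adjusted p under 0.05) for 212 genes, of which the 19 that had changed in VsWAT or were among the largest named differences are given here. Values are the difference of log2 fold changes, VsWAT minus GAS. Of the genes that changed in VsWAT, the difference was 2.28 for Peg3, 2.10 for Lrg1, 3.16 for Gprin3 and 1.85 for Cyp4v3, all higher in HFD in VsWAT. In VsWAT alone these had 2.14, 2.06, 1.16 and 0.98. The difference was -2.40 for Slc5a6, -2.14 for Slc2a4, -1.59 for Pdhb and -3.82 for Gm13394, with -1.77, -1.60, -1.32 and -2.28 in VsWAT alone. The differences for Gprin3, Cyp4v3 and Gm13394 therefore draw on the GAS libraries as well. The difference was 1.49 for Cdo1, which fell in both tissues (-0.76 in VsWAT and -2.30 in GAS). Among the other genes with the largest differences it was 4.04 for Wfdc21, 3.34 for Hp, 3.34 for Mest, 3.30 for Arxes2 and 3.25 for Gys2, the last with -0.73 in VsWAT and -4.02 in GAS, and it was -3.94 for Gapdh, -3.42 for Gpx4, -3.21 for Mmp28, -3.04 for Pkm and -2.99 for Scarna13. In VsWAT alone the log2 fold change was 1.81 for Mest, 1.04 for Hp and -1.88 for Pkm, none of which passed. In GAS the 20 mature adipocyte genes had a median log2 fold change of -1.18, and their part in these differences was not tested. Without GAS HFD 2, 2 of the 19 (Cyp4v3 and Gm13394) still passed.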

How the results depend on the processing

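In VsWAT total RNA the 24 genes (8 higher, 16 lower) kept their direction under every alternative, and RLE size factors and leaving out Gm42418 kept all 24 calls. The count was 193 (67 higher, 126 lower) with DESeq2, 131 (71 and 60) with total-count scaling, 621 (254 and 367) with no filter, 38 (32 lower) with the dispersion of all 12 total RNA libraries, 966 (468 and 498) without the libraries over 3% Gm42418, which leaves LFD 2 alone, assumed to vary like the close pair HFD 1 and HFD 2, and 3 (3 and 0) with HFD 1 and HFD 2 summed; with single libraries left out it was 4 to 81 (3 to 17 higher, 1 to 64 lower). With the replicate block it was 62 (17 and 45), 21 of the 24 among them; Sash1, Slc2a4 and Cdo1 missed the threshold (adjusted p = 0.0753, 0.0643 and 0.0698). Total-count scaling ended the calls of Sash1, Pdhb, Nr1d1, Trabd2b and Cdo1 (0.0936 to 0.911). The dispersion of all 12 libraries and the Gm42418 share as a covariate each kept 14 of the 24. The covariate ended the calls of Cyp4v3, Sash1, Slc5a6, Dbp, Gbe1, Pdhb, Trabd2b, Cdo1, Gm5182 and Gm13394 (adjusted p = 0.05001 to 0.0955). Leaving out Gm42418 only removes that gene from the fit, so it cannot show whether leftover ribosomal RNA affected the other genes. The VsWAT minus GAS difference, 212 genes (87 above 0, 125 below), gave 791 (357 and 434) with DESeq2, 650 (622 and 28) with total-count scaling (the median over genes was then 0.64), 1185 (644 and 541) with no filter, 99 (52 and 47) with the replicate block within tissue, which ended 7 of the 19 named calls (Wfdc21, Mest, Gys2, Gpx4, Mmp28, Lrg1 and Cdo1, adjusted p = 0.0513 to 0.108), and 5 to 772 (4 to 404 and 1 to 368) with single libraries left out. GAS alone, 108 genes (51 and 57), gave 458 (259 and 199), 1014 (34 and 980), 377 (212 and 165), 56 (14 and 42) and 1 to 140 (0 to 38 and 1 to 102) under the same alternatives. Small RNA input, 17 genes (7 and 10), gave 64 (14 and 50) with DESeq2, 22 (6 and 16) with total-count scaling, 202 (67 and 135) with no filter, 21 (5 and 16) with the replicate block, 6 (1 and 5) with HFD 1 and HFD 2 summed and 5 to 68 (1 to 16 and 4 to 52) with single libraries left out. The Gm42418 share, HFD minus LFD, was -0.865 percentage points and turned to 0.324 without HFD 1, 0.278 without HFD 2 and 0.833 without LFD 1, and was -3.20 to -0.903 without each of the others; over all reads it was -0.501. Adipoq, 0.07 on the log2 scale, was -0.0079 to 0.16 with single libraries left out, below 0 only without LFD 3. The cause of these changes was not tested. The alternatives for GAS and small RNA input, and the summing of HFD 1 and HFD 2, were chosen after seeing the data.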
